A study of Homo sapiens with 4 samples.

Results

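The genes *HMGA1*, *HMGA2*, *IGF2BP1*, *IGF2BP2*, *IGF2BP3*, *LIN28A* and *LIN28B* were examined in the RNAseq data, 7 of the 63677 genes in the count table. They were chosen by symbol as fetal-type genes that are held under let-7 control, and the choice was made with the fall of *HMGA2* in miR-6133-5p-treated cells already known, so their own values in this comparison are given as a description without a test. The question was whether *HMGA2* fell alone. The libraries came from LX-2, an established human hepatic stellate cell line, which is a single line grown in culture and stands in for the collagen-making cell of the liver. One group of 2 libraries was made after transfection of the miR-6133-5p mimic, and the other group of 2 after transfection of miControl, a negative control mimic, with both mimics at 20 nM. All 4 libraries came from cells that also received 5 ng/mL of rhTGF-β1, added 24 h after transfection, and RNA was taken after a further 24 h, so no library without rhTGF-β1 entered the comparison. Library totals ran from 51862006 to 93811213 counts, and 3 counts, the floor used here, corresponded to at most 0.0610 CPM (counts per 1000000 of the TMM-scaled library total). The labels do not say that the libraries of a group were separate cultures, so the errors and p-values measure only the spread between these libraries.

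The let-7 microRNAs accumulate as tissues mature and hold down fetal growth genes through matches to their seed, the bases near the 5′ end that pair with a messenger RNA. LIN28A and LIN28B bind let-7 precursors and block their processing, and their own messages carry let-7 sites, which closes a loop. HMGA1 and HMGA2 are small chromatin proteins that bend AT-rich DNA, and IGF2BP1, IGF2BP2 and IGF2BP3 bind and stabilize messenger RNAs, in part through the m6A mark. All are best known from the embryo and from tumors, and most are low in adult liver.

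The sequences of let-7a-5p and of the *MIR6133* hairpin (RefSeq, with GRCh38.p14) are shown first because the hairpin holds a stretch much like let-7a-5p. The mature miR-6133-5p sequence was not used here. In its place stands the stretch of the hairpin most like let-7a-5p, bases 71 to 92 of 108, and whether the mimic starts at its first base is not given in the sources used here. All 9 let-7 and miR-98 entries for the 5′ arm share the let-7a-5p seed, and 4 other mature microRNAs share the seed of the *MIR6133* stretch, of which miR-4510 is printed. Capitals mark the seed, bases 2 to 8.
let-7a-5p: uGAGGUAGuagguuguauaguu
*MIR6133* stretch: uGAGGGAGgagguuggguauug
miR-4510: uGAGGGAGuaggauguaugguu

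The stretch had the same base as let-7a-5p at 16 of 22 positions, against 12 at the next best placing along the hairpin. Counted from 1 at the 5′ end of let-7a-5p, with the let-7a-5p base first, the differences were U6G, U9G, U16G, A17G, G20U and U22G. Only U6G lay in the seed, so a perfect seed match differs by a single base between let-7a-5p and the stretch, as CTACCTC for let-7 and CTCCCTC for the *MIR6133* stretch. Both were searched as 7 DNA letters on the messenger strand of the 3′-UTR of the canonical transcript in GRCh37, and since they differ in letter 3 they cannot mark the same bases. A match is a description of the letters and not evidence of binding.

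Every one of the 7 3′-UTRs held a let-7 match, whereas only those of *HMGA1*, *HMGA2* and *IGF2BP2* held a match to the *MIR6133* stretch. Since the genes were chosen as held under let-7 control, nothing is read from how many of them hold a let-7 match. The 3′-UTR of *HMGA2*, 2999 bases long, held 4 let-7 matches and 1 *MIR6133* match, whereas the longest 3′-UTR annotated for the gene, 7421 bases in another transcript, held 0 of each. The 1347-base 3′-UTR of *HMGA1* had 1 let-7 match and 2 *MIR6133* matches, and that of *IGF2BP2*, with 2401 bases, had 1 of each. *IGF2BP1* and *LIN28B* had 4 let-7 matches each, and *IGF2BP3* and *LIN28A* had 1 each, with no *MIR6133* match in 6701, 4549, 2153 and 3270 bases, respectively. For comparison, 10.9% of the 13343 tested genes with a 3′-UTR held a let-7 match, 21.4% held a *MIR6133* match, and 3.93% held both. Longer 3′-UTRs hold more of both. Among 3′-UTRs within 10% of the length of that of *HMGA2*, 15.1% held a let-7 match and 32.9% a *MIR6133* match, and at the length of *IGF2BP1* the shares were 36% and 53.2%.

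The 22-base windows below are the sites that set the 3 genes with both kinds of match apart, with 1 let-7 site of *IGF2BP3* for contrast, and the matched letters are in capitals. All are DNA letters of the messenger strand in GRCh37, each lies within a single exon of the 3′-UTR, and the last letter faces base 1 of the microRNA.
*HMGA2* let-7 site, chr12:66357079-66357100, plus strand: ccaacgttcgatttCTACCTCa
*HMGA2* *MIR6133* site, chr12:66358111-66358132, plus strand: ctctctctcttcctCTCCCTCt
*HMGA1* first *MIR6133* site, chr6:34213313-34213334, plus strand: gggtgagtcccctaCTCCCTCt
*HMGA1* second *MIR6133* site, chr6:34213937-34213958, plus strand: gtcccagcctggggCTCCCTCt
*IGF2BP2* *MIR6133* site, chr3:185362461-185362482, minus strand: tgtttatctctcccCTCCCTCc
*IGF2BP3* let-7 site, chr7:23351414-23351435, minus strand: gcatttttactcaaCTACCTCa

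None of these 4 *MIR6133* sites had an A opposite base 1, the extra letter that the longer, 8-base form of a seed match carries. By contrast, the first let-7 site of *HMGA2*, which begins 21 bases after the stop codon, and the only let-7 sites of *IGF2BP2*, *IGF2BP3* and *LIN28A* did. The single let-7 site of *HMGA1* did not.

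**Figure D1:**
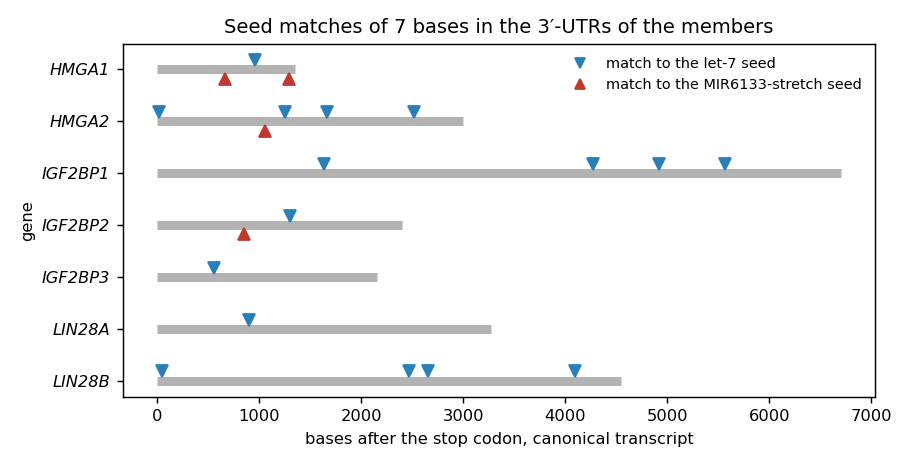
Positions of 7-base seed matches in the 3′-UTRs of the 7 genes, in bases after the stop codon of the canonical transcript (horizontal axis), with 1 grey bar per gene drawn to the length of its 3′-UTR. Downward triangles mark let-7 matches, which all 7 genes have, and upward triangles mark matches to the *MIR6133* stretch, which only *HMGA1* (2), *HMGA2* (1) and *IGF2BP2* (1) have.

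*HMGA2* did not fall alone: *HMGA1* was lower by nearly as much, while *IGF2BP2* and *IGF2BP3* differed far less, *IGF2BP1* was nearly silent with an uncertain difference and the LIN28 messages were barely detected. *HMGA2* (ENSG00000149948, chr12:66218240-66360071) encodes the fetal member of the AT-hook proteins. It measured 143 and 150 CPM in the miControl libraries and 23.2 and 22.7 CPM in the miR-6133-5p libraries. The groups lay far apart and the libraries within each were close. The miR-6133-5p mean, 23 ± 0.358 CPM (SD, n = 2), was 15.7% of the miControl mean of 147 ± 5.18 CPM (SD, n = 2), a log2 fold change of -2.67 (SE 0.107).

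*HMGA1* (ENSG00000137309, chr6:34204650-34214008), its more widely expressed relative, gave 392.3 and 341 CPM with miControl and 74.1 and 70.4 CPM with miR-6133-5p. Again both treated libraries were below both controls. The mean went from 366 ± 36.6 to 72.3 ± 2.59 CPM (SD, n = 2 each), 19.7% of miControl, a log2 fold change of -2.34 (SE 0.114). Of the 18252 genes with enough counts to test, 35 had a log2 fold change at or below that of *HMGA2* and 76 at or below that of *HMGA1*, counting the genes themselves. *HMGA1* has processed copies with which it could share reads. The 8 copies *HMGA1P1* to *HMGA1P8* had at most 16 counts in any library, against at least 4846 for *HMGA1*, and the part of shared reads, which may have been counted for neither, was not tested.

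The ratio of the 2 genes within a library does not depend on how libraries are scaled. There were 0.364 and 0.441 counts of *HMGA2* per count of *HMGA1* in the miControl libraries and 0.314 and 0.323 in the miR-6133-5p libraries. The ratio was lower in both treated libraries. The group means, 0.403 and 0.318, differed by about as much as the miControl libraries did from each other. Against *IGF2BP2*, by comparison, *HMGA2* had 1.16 and 1.22 counts per count with miControl and 0.248 and 0.219 with miR-6133-5p, and *HMGA1* had 3.19 and 2.77 against 0.791 and 0.681.

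*IGF2BP2* (ENSG00000073792, chr3:185360918-185542830) is the family member that adult tissues keep, and it was the most abundant of the 3 IGF2BP messages per length in these cells. It measured 122.8 and 123.1 CPM with miControl and 93.7 and 103.5 CPM with miR-6133-5p. Both treated libraries were lower, by a modest amount, with a mean at 80.2% of miControl and a log2 fold change of -0.32 (SE 0.103), or -0.15 with library totals alone as the scale. *IGF2BP3* (ENSG00000136231, chr7:23349828-23510110), a fetal paralog that returns in many tumors, stood at 21.8 and 20.8 CPM with miControl and 19.9 and 21.6 CPM with miR-6133-5p. These groups overlapped, with a log2 fold change of -0.04 (SE 0.113). With library totals alone as the scale it was 0.12, and it was 0.0024 without miR-6133-5p replicate 1, so it has no stable sign.

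*IGF2BP1* (ENSG00000159217, chr17:47074747-47133507), the fetal paralog with the longest 3′-UTR and 4 let-7 matches, was close to silent. It had 13 and 24 counts with miControl and 35 and 62 with miR-6133-5p, which is 0.264 and 0.441 against 0.535 and 0.625 CPM. Both treated libraries were above both controls. The log2 fold change of 0.71 had an SE of 0.443 and ran from 0.39 to 1.11 with each library left out in turn, the lowest without miControl replicate 1 and the highest without miControl replicate 2.

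The LIN28 genes, which encode the blockers of let-7 processing, did not reach the filter on low counts. *LIN28A* (ENSG00000131914, chr1:26737308-26756219) had 2 and 0 counts with miControl and 4 and 2 with miR-6133-5p, and *LIN28B* (ENSG00000187772, chr6:105384491-105531207) had 2 and 0 against 0 and 5. No fold change is given at this depth. Whether the mimic moved either gene was not detectable.

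**Figure D2:**
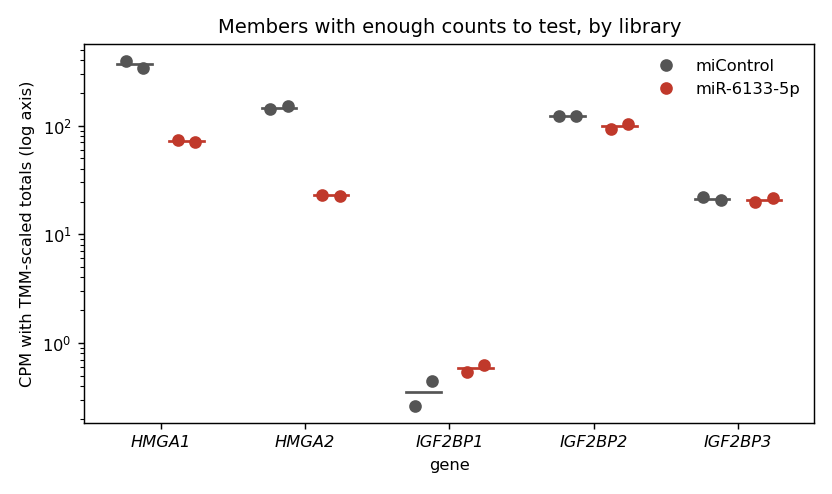
Level of each tested gene in each of the 4 libraries, in CPM with TMM-scaled totals on a log axis, with points for libraries and short lines for group means. *HMGA1* and *HMGA2* separate widely between miControl and miR-6133-5p, *IGF2BP2* separates narrowly, *IGF2BP3* overlaps, and *IGF2BP1* lies below 1 CPM in every library. *LIN28A* and *LIN28B*, with at most 5 counts per library, are not drawn.

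Calls in the whole table used an adjusted p-value under 0.01 and a log2 fold change beyond 0.8 in the edgeR quasi-likelihood test. *HMGA1* and *HMGA2*, 2 of the 5 genes of the set that passed the filter on low counts, were past the thresholds for lower, where 5.54% of all tested genes were called. None was past those for higher, where 2.9% were called. The second share is 529 genes, and it was 293 genes without miControl replicate 1. As for groups that do not overlap, 3 of the 5 were lower in each treated library than in either control, as were 31.3% of all tested genes, and *IGF2BP1* was higher in each, as were 33.2%. Since *HMGA2* was known to fall when the set was drawn up, nothing is read from these counts.

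**Figure D3:**
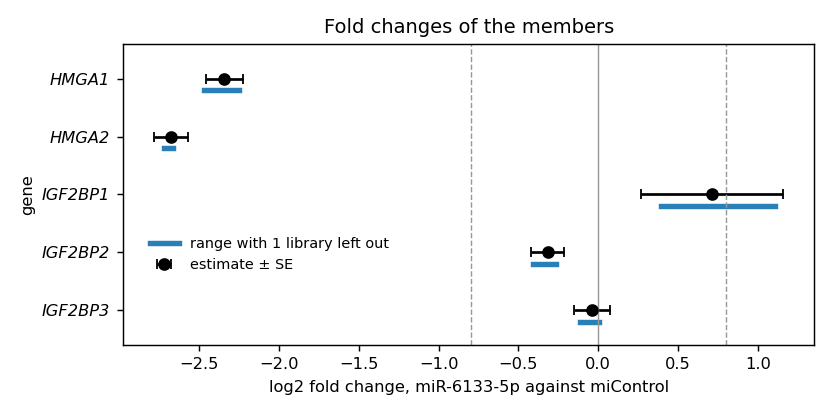
Log2 fold change of miR-6133-5p against miControl for the 5 tested genes, as a point with its SE from the edgeR fit, with a bar below it for the range obtained when each library is left out in turn. Dashed lines mark 0.8 in each direction, and *HMGA1* and *HMGA2* lie beyond -0.8 over the whole range while *IGF2BP2* and *IGF2BP3* stay between -0.8 and 0.8. The point of *IGF2BP3* lies at -0.04 and its sign turns to 0.12 with library totals alone.

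Scaled by the length of the canonical transcript, the order of the levels changed between the groups. With miControl, *HMGA1* was highest at 191 ± 19.1 CPM per kb, followed by *HMGA2* at 35.6 ± 1.26, *IGF2BP2* at 28.7 ± 0.0413 and *IGF2BP3* at 4.99 ± 0.173 CPM per kb (SD, n = 2 each). *IGF2BP1* followed at 0.0401 ± 0.0142 CPM per kb, and the LIN28 genes were at or below 0.00512 CPM per kb. Neighbours from *HMGA1* down to *IGF2BP1* differed by more than their SDs, whereas *LIN28A* and *LIN28B* did not. With miR-6133-5p, *HMGA1* was still first at 37.6 ± 1.35 CPM per kb, but *HMGA2*, at 5.58 ± 0.0869, had passed below *IGF2BP2*, at 23 ± 1.62, and came within 1 CPM per kb of *IGF2BP3*, at 4.85 ± 0.288. These levels assume that the canonical transcript is the one expressed, which short reads counted per gene cannot show.

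Several annotated genes overlap the set, and counting that ignores strand could not separate their reads. The library kit marks strand, and the setting of the counting is not given in the sources used here. *HMGA2-AS1*, an antisense RNA sharing 384 bases, or 2.55% of the annotated exon bases of *HMGA2*, had 1.77 and 2.35 CPM with miControl and 0.688 and 0.656 CPM with miR-6133-5p. It was called lower (log2 fold change -1.62, SE 0.291, edgeR adjusted p = 0.000948, n = 2 each), a call lost without miControl replicate 2 (edgeR adjusted p = 0.0226). The pseudogene *RPSAP52*, which overlaps the start of *HMGA2* and shares no exon base with it, had 0.976 and 1.38 against 0.581 and 0.494 CPM and was called lower only with no filter on low counts. The lncRNA ENSG00000256083, inside *HMGA2* on the other strand, gave 0.325 and 0.422 against 0.566 and 0.313 CPM. All 3 were far below *HMGA2* itself. *MALSU1*, a mitochondrial ribosome assembly factor, overlaps 17.8% of the exon bases of *IGF2BP3* from the other strand. It had 11.1 and 11.1 CPM with miControl and 18.1 and 15.1 CPM with miR-6133-5p, with a log2 fold change of 0.57 (SE 0.129) that did not pass the fold threshold. Its level was comparable to that of *IGF2BP3*, and its part in the *IGF2BP3* value was not tested. *IGF2BP2-AS1*, *MIR548AQ*, *SNORD65*, ENSG00000251550 and ENSG00000232627 had at most 9 counts in any library.

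The genes whose 4 values most resembled those of *HMGA2* were sought among 9463 tested genes with a symbol and a mean log2 CPM of at least 3, by Euclidean distance over the 4 libraries of log2 CPM relative to the miControl mean. Among the 5 nearest were *ZDHHC9*, a palmitoyltransferase, at a distance of 0.126 on the log2 scale, *STX2*, a syntaxin, at 0.197, *NID1*, the basement membrane protein nidogen, at 0.211, and *ATP13A3*, a P-type transporter, at 0.332. Their log2 fold changes ran from -2.72 to -2.46. The distance is built from the same values as the fold change. Nearness in fold change therefore follows from how the genes were picked, and nothing is read from it. *HMGA1* came thirteenth in this order, at 0.51.

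The genes around the set were read from 9 lists, for which the test across all genes applied and no test was made on a list as such. Over all tested genes, 5.54% were called lower and 2.9% higher, the shares to set beside the calls of each list. The proteins that make, block and destroy let-7 were the first. Of 18 tested genes of the let-7 machinery, 1 was called lower and 0 higher, and the median log2 fold change was -0.19, against 0.03 over all tested genes. The called gene was *DROSHA*, the nuclease that starts microRNA processing, which had 299.6 and 306 CPM with miControl and 122 and 131 CPM after miR-6133-5p. The log2 fold change was -1.26 (SE 0.103, edgeR adjusted p = 1.47e-06, n = 2 each). The other steps showed smaller differences, including a log2 fold change of 0.09 for *DGCR8*, the partner of DROSHA, and 0.72 for *TRIM25*, a cofactor of LIN28A. *TRIM25* passed the fold threshold without miR-6133-5p replicate 1, at 0.82. *AGO2*, the slicing Argonaute, had -0.50 with all libraries and was called at -1.11 without miR-6133-5p replicate 2, but stood at -0.10 without miR-6133-5p replicate 1. Of the 3 tested host genes of let-7 precursors none was called, and the largest difference was that of *MIRLET7BHG*, at a log2 fold change of 0.74 (SE 0.147). *MIR100HG* and *HUWE1* went the other way, at -0.51 (SE 0.117) and -0.11 (SE 0.156), and the median of the 3 was -0.11. Mature let-7 was not measured.

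Other known let-7 targets went in both directions. Among 32 tested, 5 were called lower and 3 higher, and 23 had a log2 fold change below 0, with a median of -0.17. The G1 kinase *CDK6* had 1035 and 1195 CPM with miControl and 162 and 212 CPM in treated cells, for a log2 fold change of -2.58 (SE 0.139, edgeR adjusted p = 6e-08, n = 2 each), close to that of *HMGA2*. The zinc finger factor *PLAGL2* fell by 2.05 on the log2 scale (SE 0.109) and the cyclin *CCND2* fell from 20.3 and 19.7 CPM to 6.58 and 6.64 CPM, 33.1% of miControl. The transcription factor *MYC* and the matricellular gene *THBS1* fell by 0.85 and 0.86, near the threshold, and neither was called with library totals alone. *RRM2*, a ribonucleotide reductase subunit, rose by 1.15 (SE 0.104, edgeR adjusted p = 3.23e-06, n = 2 each) from 126 and 124 CPM to 288 and 267.5 CPM. The nuclear receptor *NR6A1* rose by 1.05 and the cell cycle factor *E2F5* by 0.83, both low genes whose calls were lost when either miControl library was left out, and *E2F5* also under DESeq2 and without miR-6133-5p replicate 1. *THBS1* was also lost without that library, at -0.78.

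Of 31 of these targets with a 3′-UTR in the annotation, 9 held a *MIR6133* match, of which 3 (*PLAGL2*, *CCND2* and *THBS1*) were called lower and 1 (*NR6A1*) higher, with a median log2 fold change of -0.27. Of the 22 without one, 2 (*CDK6* and *MYC*) were called lower and 2 higher, with a median of -0.13. A let-7 match in the canonical transcript was held by 6 of the 9 and by 16 of the 22. Of the targets called lower, *PLAGL2* held 1 let-7 match, whereas *CCND2*, *THBS1*, *CDK6* and *MYC* held 0. Those called higher all held let-7 matches, *NR6A1* with 5 and *RRM2* and *E2F5* with 1 each. *CDK6* and *MYC* held neither kind of match.

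The genes that HMGA2 acts on, a list not split by the direction of that action, went both ways. Of 10 tested, 1 was called lower and 0 higher, and the median log2 fold change was 0.11. The called gene was *SNAI2*, an epithelial-to-mesenchymal transition factor, with 133 and 129.9 CPM against 63.3 and 54.6 CPM (log2 fold change -1.16, SE 0.109, edgeR adjusted p = 4.81e-06, n = 2 each). Of those not called, *SNAI1*, a related factor, had -0.58, *CCNB2*, a mitotic cyclin, had 0.45 and *CCNA2*, a cyclin whose promoter HMGA2 derepresses, had 0.13. The other HMG proteins, which bend or loosen chromatin without AT hooks, included 2 genes called higher and 0 lower among 8 tested, with a median of 0.35. *HMGB2* rose from 87.8 and 90.4 CPM to 197 and 173 CPM (log2 fold change 1.05, SE 0.108, edgeR adjusted p = 9.87e-06, n = 2 each), and *HMGN5*, a low gene, rose by 1.14 (SE 0.194), a call lost without miControl replicate 1.

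Around the IGF2BP proteins, none of 11 partners in their RNA-protein particles was called, and the largest log2 fold change was that of the poly(A)-binding gene *PABPC1*, -0.41 (SE 0.101). Among 17 tested writers, erasers and other readers of m6A, 1 was called in each direction, with a median of 0.05. *YTHDF2*, a reader that speeds the decay of marked messages, rose from 41.4 and 38.9 CPM to 112 and 106 CPM (log2 fold change 1.44, SE 0.103, edgeR adjusted p = 5.01e-07, n = 2 each). *FTO*, a demethylase whose 3′-UTR held 3 *MIR6133* matches, fell by 0.85 (SE 0.109) and was not called with library totals alone. *YTHDC2*, with 3 such matches in a shorter 3′-UTR (1810 against 10026 bases), had 0.15 (SE 0.112) and was not called. Of 10 tested messages that IGF2BP proteins bind, 2 were called lower and 0 higher, with a median of -0.37. They were *SRF*, the serum response factor, which fell by 1.58 (SE 0.106, edgeR adjusted p = 3.06e-07, n = 2 each), and *MYC*. *IGF2*, the message that named the family, had at most 0.33 CPM in any library and *H19* had 0 counts in every library.

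Other oncofetal genes were mostly silent: 4 of 9 were tested, with a median log2 fold change of -0.24. The most abundant, *PEG10*, had 101.4 and 105.2 CPM with miControl and 90.0 and 104.1 CPM with miR-6133-5p. Its groups overlapped, with a log2 fold change of -0.09 (SE 0.108). *PLAG1*, a fetal zinc finger factor, fell from 4.39 and 4.57 CPM to 2.43 and 1.96 CPM (log2 fold change -1.04, SE 0.194, edgeR adjusted p = 0.00126, n = 2 each), and the call was lost when either miControl library was left out. *AFP*, the fetal liver albumin, stayed under 0.69 CPM, and *GPC3*, *DLK1* and *TRIM71* had no counts.

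**Figure D4:**
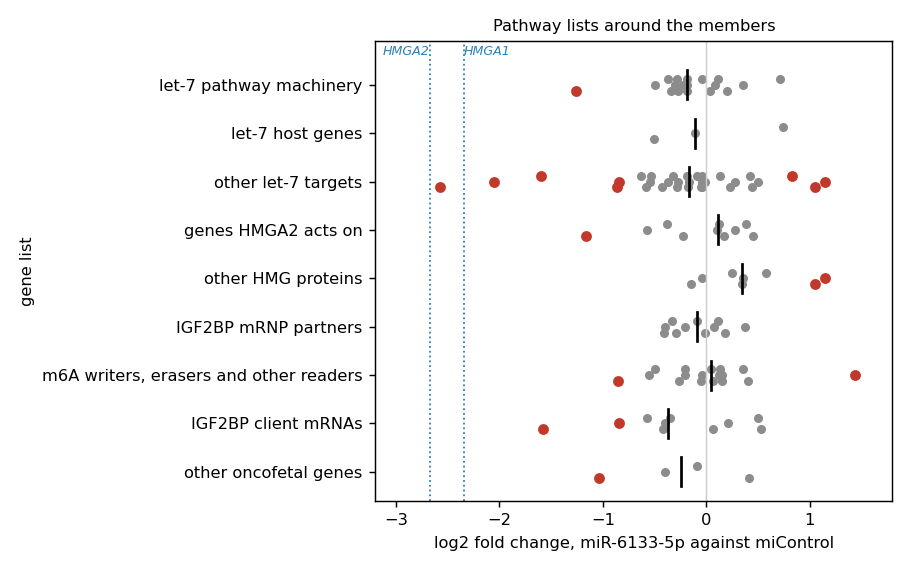
Log2 fold change of miR-6133-5p against miControl for each tested gene of 9 lists (rows), with called genes in red, other genes in grey and a vertical bar at the median of each list. Dotted lines mark *HMGA2* at -2.67 and *HMGA1* at -2.34, and *CDK6* at -2.58 is the only listed gene that reaches beyond *HMGA1*.

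The tested genes outside the set were also grouped by the seed matches in their 3′-UTRs. The 9552 genes with neither match had a median log2 fold change of 0.08, and 4.61% of them were called lower. The 933 genes with a let-7 match only had a median of 0.01 and 3.75% called lower. The 2332 genes with a *MIR6133* match only had a median of -0.16 and 14% called lower, and the 521 genes with both had -0.14 and 14%. Relative to genes with neither, the *MIR6133*-only median was lower by between 0.18 and 0.32 on the log2 scale in the 4 possible pairs of a treated and a control library, and the let-7-only median by between 0.03 and 0.10. These 4 pairs share libraries, so they are not independent.

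The number of *MIR6133* matches went with the size of the difference. The share called lower was 4.53% at 0 matches, 11.7% at 1, 16.7% at 2 and 23.9% at 3 or more, while for let-7 matches it was 6.45%, 7.34%, 8.28% and 6.90%. These were 10485, 1957, 587 and 309 genes for *MIR6133* and 11884, 1280, 145 and only 29 genes for let-7. The median 3′-UTR also grew with the number of matches, from 1057 to 4145 bases for *MIR6133* and from 1168 to 7084 for let-7. The number was not tested apart from length. The groups by kind of match differ in length too, with a median 3′-UTR of 958 bases for genes with neither match, 2645 for let-7 only and 2288 for *MIR6133* only. Within 3′-UTRs of 1000 to 3000 bases, a range chosen after seeing the data, the let-7-only median was higher than that of genes with neither by 0.01 in place of lower by 0.07. In this range the median of genes with a *MIR6133* match only was lower by 0.19, in place of 0.24, and that of genes with both matches by 0.14, in place of 0.22. *HMGA1*, *HMGA2* and *IGF2BP2* belong by their sequences with the genes that hold both matches, and *IGF2BP1* and *IGF2BP3* with those that hold let-7 matches only. The 1st percentile of the genes with both matches was -1.91. *HMGA1*, at -2.34, and *HMGA2*, at -2.67, lay below it, whereas *IGF2BP2*, at -0.32, lay near the 37th percentile. What part the matches had in the values of the members was not tested.

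**Figure D5:**
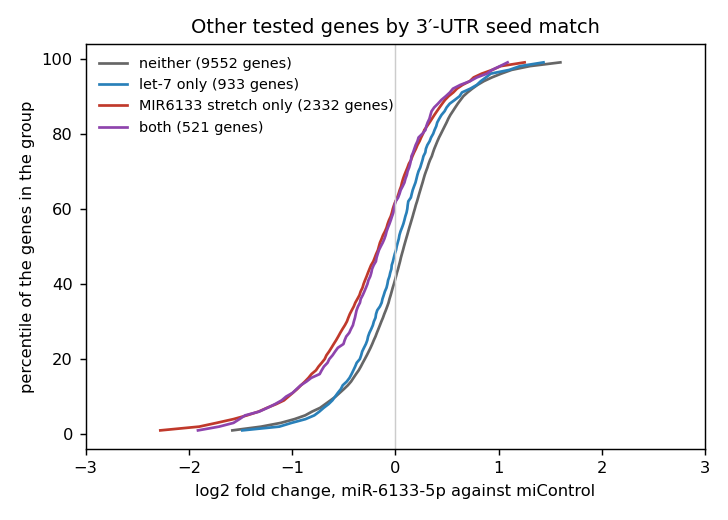
Percentiles of log2 fold change (vertical axis, percentile of the genes in the group) for tested genes outside the set, by seed matches in the 3′-UTR. The curves of the 2332 genes with a *MIR6133* match only and of the 521 with both lie to the left of that of the 9552 genes with neither, with medians of -0.16, -0.14 and 0.08, and the curve of the 933 genes with a let-7 match only, with a median of 0.01, lies close to the last.

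Markers were read to see which cells the libraries held. Of 10 stellate cell markers 8 were tested, with *COL1A1* at 2723 to 3112 CPM with miControl and 995 to 1133 CPM with miR-6133-5p, whereas *DES* and *LUM*, often used for these cells, had under 0.1 CPM. The 10 markers summed to between 8680 and 9274 CPM with miControl and between 5647 and 6242 CPM with miR-6133-5p. Of the 8 tested, 7 had a log2 fold change below 0. The 4 called lower were *COL1A1*, *COL1A2*, *ACTA2* and *TAGLN*, where 5.54% of all tested genes were called. Among those not called, *COL3A1* and *SPARC* had log2 fold changes of -0.44 and -0.40, and *VIM* and *PDGFRB* had -0.02 and 0.04. The hepatocyte markers summed to at most 2.85 CPM, the endothelial markers to at most 1.35 CPM and the macrophage markers to at most 0.325 CPM in any library, with *ALB*, *TTR* and *CD163* at or near 0. The bile duct markers summed to 83.9 and 85.3 CPM against 39.9 and 36.8 CPM, most of it *SOX9*, at 80.2 and 80.8 against 33.1 and 29.5 CPM. *KRT7* went the other way, from 3.62 and 4.44 to 6.61 and 7.08 CPM (log2 fold change 0.76, not past the fold threshold), and *KRT19* and *EPCAM* were under 0.2 CPM. All libraries came from the single line LX-2, so these values are RNA levels in that line and not shares of cell kinds. Whether all of its cells changed or only a part of them cannot be told from bulk libraries.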

How the data were processed

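Poly(A) RNA of LX-2 cells was sequenced from stranded libraries (TruSeq Stranded mRNA, read pairs of 150 bases per mate). Per the paper and the submitters' processing notes, reads were aligned to GRCh37 with STAR 2.5.3a in GeneData Profiler and assigned to genes with featureCounts of Subread 1.6.4, and the authors deposited whole-number counts per Ensembl gene, without normalization. The annotation release, strand setting and filters are not given in the sources used here. Totals of counts were 1.68 to 1.70 per uniquely mapped pair, so mates appear to have been counted singly.

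Genes were filtered with filterByExpr, scaled by TMM and, following the paper, modelled by glmQLFit (edgeR 4.0.16, R 4.3.3) and tested with the 2-sided quasi-likelihood F test with Benjamini–Hochberg adjustment over 18252 genes. CPM used TMM-scaled totals without a pseudocount, and log2 CPM a prior count of 2. With 2 libraries per group no exact test can go below p = 0.333, and none was made. Genes, exons and 3′-UTRs came from GENCODE v44 lifted to GRCh37, a release that may differ from the one behind the counts, and microRNA sequences from RefSeq. The members and all gene lists were chosen with earlier results of these data known. Named genes were the 7 members, overlapping genes with counts, the called genes of each list or, where none was called, the gene with the largest fold change, and the 5 genes most like *HMGA2*, of which 1 is not reported here. *DGCR8*, *TRIM25*, *AGO2*, *MIR100HG*, *HUWE1*, *SNAI1*, *CCNB2*, *CCNA2*, *YTHDC2*, *IGF2*, *H19*, *PEG10*, *AFP*, *GPC3*, *DLK1*, *TRIM71* and the markers were named after their values were seen. *PECAM1*, 1 of the 4 endothelial markers, was not found by symbol. The procedure was tested on simulated data. Alternatives were RLE factors, library totals alone, DESeq2 1.42.0, 2 other filters, a replicate block, each library left out, the longest 3′-UTR, an 8-base match and, chosen after seeing the data, 3′-UTRs of 1000 to 3000 bases. Plots were drawn with matplotlib 3.10.9.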

Additional observations from a re-analysis of the deposited data

How the results depend on the processing

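The log2 fold change of *HMGA2* was -2.67 and ran from -2.72 to -2.66 with each library left out. With library totals alone as the scale, which moved the median of all tested genes from 0.03 to 0.19, it was -2.51, *IGF2BP2* moved from -0.32 to -0.15 and *IGF2BP3* changed sign from -0.04 to 0.12. *IGF2BP3* also ran from -0.12 to 0.0024 with each library left out, the latter without miR-6133-5p replicate 1. *HMGA1* and *HMGA2* were past the thresholds under all 10 alternatives of the fit, and no other member was. The labels do not say whether libraries with the same replicate number were handled together. Differences between replicates 1 and 2 in the 2 groups had a correlation of 0.049 across genes. With 2 libraries per group this cannot decide the question. With the replicate block *HMGA2* stood at -2.67, and 1130 genes were called lower and 642 higher, in place of 1011 and 529.

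With library totals alone, 977 genes were called higher. The same scale gave 1 higher call in the let-7 machinery and 1 among the let-7 host genes, 3 lower calls among other let-7 targets, 0 among m6A genes and 1 among IGF2BP client messages. With each library left out, genes called higher ran from 293 to 587, let-7 machinery calls from 1 to 2 lower and 0 to 1 higher, other let-7 targets from 1 to 3 higher, other HMG proteins from 1 to 2 higher and other oncofetal genes from 0 to 1 lower.

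Relative to genes with neither seed match, the median of genes with a *MIR6133* match only was -0.24, from -0.31 to -0.20 with each library left out -0.32 with 8-base matches and -0.19 in 3′-UTRs of 1000 to 3000 bases. That of genes with both was -0.22, from -0.31 to -0.18 with each library left out and -0.14 in 3′-UTRs of that length, where the let-7-only difference reversed from -0.07 to 0.013. The causes of these changes were not tested. Depth limits *LIN28A*, *LIN28B* and *IGF2BP1*, which had at most 62 counts in any library.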
